A study of Mus musculus with 12 samples.

Results

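Long intergenic non-coding RNAs (lincRNAs) expressed in mouse B lymphocytes are described here across a STING agonist and a Tmem173 genotype. The lincRNAs were chosen by their annotation and abundance: the gene type lincRNA in the deposited annotation, at least 1000 raw counts summed over all 12 libraries, and a symbol that was neither Gas5 nor one of the Snhg small nucleolar RNA host genes. This gave 112 lincRNAs out of 54532 annotated genes, of which 5559 were lincRNAs and 1644 of these had at least 1 count. The level in all libraries together therefore chose them, and no level given here is evidence that lincRNAs are expressed. The least abundant that entered were Gm26724 with 1002 summed counts, Gm47232 with 1003 and 4732487G21Rik with 1010, and the closest that did not were C030034I22Rik with 997, Gm16907 with 996 and 2810429I04Rik with 965. Snhg6, Snhg12 and Snhg20 were abundant enough and were left out by name.

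B lymphocytes were sorted from 3 wild type mice and 3 mice labelled Tmem173-/-, Tmem173 being the gene of STING, the receptor of cyclic dinucleotides. Cells of each genotype were cultured either with 3'3'-cGAMP, a bacterial cyclic dinucleotide that binds STING, for 12 hours or as controls. The 4 groups of 3 libraries were wild type with cGAMP, wild type control, Tmem173-/- with cGAMP and Tmem173-/- control, and all were poly-A selected RNA of bulk cells. The labels used here give neither the age nor the sex of the mice, nor the time the controls spent in culture, and do not say which control and cGAMP libraries came from 1 mouse. With 3 mice of each genotype, control and cGAMP libraries may share mice, but the main tests treat them as unpaired. A fit with the replicate number as a block is given at the end.

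A lincRNA is a transcript longer than a small RNA that lies between protein-coding genes and has no long open reading frame. Some act in the nucleus, as Xist does when it coats and silences an X chromosome and as Neat1 does when it builds paraspeckles. Others are precursors from which microRNAs are cut, and in activated B cells the products of Mir155hg and Mir17hg are known regulators of germinal centre function and of survival. For many lincRNAs that carry only a predicted gene number or a RIKEN clone name, no function is stated in the annotation, and 90 of the 112 had such a symbol.

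The mature microRNAs below are shown because their hosts, Mir155hg, Mir17hg and Mir142hg, were among the lincRNAs that rose with cGAMP in wild type cells. The capitals mark the seed, bases 2 to 8, by which a microRNA pairs with its targets. Sequences are RefSeq entries on GRCm38.p6. The microRNAs themselves were not measured, since the libraries report the host transcript. The first lies in Mir155hg on chromosome 16 and the last pair in Mir142hg on chromosome 11, and the others lie in Mir17hg on chromosome 14.
mmu-miR-155-5p: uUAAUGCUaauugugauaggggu
mmu-miR-17-5p: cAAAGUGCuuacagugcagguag
mmu-miR-20a-5p: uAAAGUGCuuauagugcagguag
mmu-miR-18a-5p: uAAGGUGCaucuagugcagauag
mmu-miR-19a-3p: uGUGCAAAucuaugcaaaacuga
mmu-miR-19b-3p: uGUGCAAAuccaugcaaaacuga
mmu-miR-92a-3p: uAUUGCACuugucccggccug
mmu-miR-142a-5p: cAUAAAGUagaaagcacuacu
mmu-miR-142a-3p: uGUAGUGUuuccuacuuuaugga
Mir17hg thus carries a pair with the seed AAAGUGC, miR-17-5p and miR-20a-5p, and a pair with the seed GUGCAAA, miR-19a-3p and miR-19b-3p. The other sequences each have a seed of their own.

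The libraries held 26490593 to 31417833 assigned counts and 18556 to 19727 detected genes each. Among controls the labelled genotype was not visible in Tmem173 RNA, given in CPM (counts per 1000000 after scaling). Tmem173 was at 80.2 to 103 CPM in Tmem173-/- controls and at 91.1 to 102 CPM in wild type controls. With cGAMP it was at 44.6 to 49.2 CPM in wild type cells and at 82.8 to 101 CPM in Tmem173-/- cells. Of 25 interferon-stimulated genes, 25 rose with cGAMP in wild type cells (median log2 fold change 3.26) and 0 in Tmem173-/- cells (median 0.12). Their summed level was 6662 to 7771 CPM in wild type cells with cGAMP, and among the wild type controls replicate 3 stood apart with 1335 CPM, against 574 and 792 CPM in replicates 1 and 2. Summed markers of B cells were at 5510 to 6200 CPM in wild type cells with cGAMP, 7490 to 8440 CPM in wild type controls, and 7650 to 8810 CPM in the Tmem173-/- libraries. Summed T cell markers reached 26.5 CPM and neutrophil markers 23.8 CPM in wild type cGAMP replicate 1, the highest of all libraries, and NK cell markers 2.62 CPM. Monocyte and macrophage markers were at 6.44 to 14.2 CPM in wild type cells with cGAMP and at 30.8 to 42.6 CPM in wild type controls. Dendritic cell markers were at 36.5 to 44.8 CPM in wild type cells with cGAMP and at 15 to 20 CPM in wild type controls, and plasma cell markers at 152 to 174 CPM with cGAMP and 230 to 251 CPM in controls. The part of other cells in any lincRNA's change was not tested. In such bulk samples, fewer cells of a type and less RNA per cell cannot be told apart.

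The 112 lincRNAs were a small share of all counts, and that share was largest in wild type cells with cGAMP. They held 0.475%, 0.608% and 0.537% of the counts in wild type cells with cGAMP and 0.329%, 0.375% and 0.277% in wild type controls. In Tmem173-/- cells they held 0.355%, 0.380% and 0.433% with cGAMP and 0.331%, 0.364% and 0.377% in controls. The wild type groups did not overlap, while the Tmem173-/- groups did. A single transcript, Gm26917, carried much of the difference between the wild type groups. Without it the shares were 0.380%, 0.446% and 0.397% in wild type cells with cGAMP and 0.304%, 0.374% and 0.248% in wild type controls. In Tmem173-/- cells they were then 0.329%, 0.358% and 0.405% with cGAMP and 0.300%, 0.348% and 0.357% in controls. Without Gm26917 the wild type groups still did not overlap, but Tmem173-/- cGAMP replicate 3 lay above 2 of the 3 wild type libraries with cGAMP. With 3 libraries a group, an exact permutation test cannot give a two-sided p under 0.1.

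Abundance was very uneven among the lincRNAs. Only 15 had at least 10000 summed counts, 50 had under 2000, and the median was 2275.5. They had a median of 2639 exonic bases among the 111 present in GENCODE M21, from 269 in Mir142hg to 20771 in Neat1, and 16 had transcripts of a single exon. Per kilobase of exon, Gm10076 had the highest level in wild type controls, 1140 ± 266 CPM per kb (SD, n = 3). Mir142hg followed at 63.3 ± 20.9, Gm26917 at 57.8 ± 48.9, the RIKEN clone 2900097C17Rik at 57.3 ± 4.07 and Malat1 at 48.6 ± 21.7 CPM per kb. These 4 did not differ from each other beyond their spread. Next came AW112010 at 40.9 ± 3.98, AU020206 at 37.3 ± 4.47, 1700020I14Rik at 28.2 ± 0.574 and Xist at 27.8 ± 7.05 CPM per kb, and Xist and 1700020I14Rik did not differ beyond their spread. Gm10076 is a single-exon transcript of which 69.9% of the 50-base words also occur in transcripts of other genes, first of all Rpl41, which encodes a ribosomal protein. Its counts may therefore include reads of Rpl41, and its place in this order is uncertain.

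The spread between libraries differed much from one lincRNA to the next. In wild type controls the coefficient of variation was smallest for 1700020I14Rik, at 2.04%, and largest for Gm26917, at 84.5%. Its median over the 112 lincRNAs was 15.9% in wild type cells with cGAMP, 16.5% in wild type controls, 9.98% in Tmem173-/- cells with cGAMP and 16.5% in Tmem173-/- controls. Wild type control replicate 3 was the lowest of the 12 libraries for Malat1, Neat1, Xist, Mir142hg and Mirt1.

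The response of wild type cells to cGAMP asked which lincRNAs follow STING activation. Of the 112, 30 rose, 28 fell and 54 did not pass the threshold, an adjusted p under 0.05 in edgeR's quasi-likelihood test over all 14473 tested genes. All 112 passed the filter on low counts. The shares of lincRNAs, 26.8% higher and 25.0% lower, stood beside 22.4% higher and 25.4% lower of all tested genes, and beside 25.9% higher and 31.4% lower of the other 10107 genes with the same summed count. The shares of changed lincRNAs were thus near those of other genes. Their median log2 fold change was 0.03, and it was -0.00 over all tested genes. At least 2-fold changes were found for 15 that rose and 10 that fell. Without wild type control replicate 3, 20 lincRNAs rose and 26 fell. Replicate 1 had the highest summed T cell, NK cell and neutrophil markers of either wild type group, and leaving out that pair of libraries gave 21 that rose and 22 that fell. Summed counts were under 250 in some group for 8 of those that rose and 9 of those that fell, Gm7160 and Gm34215 among them.

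MicroRNA host genes were among the largest rises. Mir155hg (ENSMUSG00000097418, chromosome 16, 84703167 to 84715245) is the precursor of miR-155, which B cells need for normal germinal centres. It had 61.3, 71.2 and 65.4 CPM in wild type cells with cGAMP and 14.6, 15.5 and 14.2 CPM in wild type controls. It had 15.2, 15.8 and 14.3 CPM in Tmem173-/- cells with cGAMP and 14.2, 17.2 and 15.4 CPM in Tmem173-/- controls. Every wild type library with cGAMP lay above all 9 others, which lay close together. The wild type rise was 4.46-fold, a log2 fold change of 2.16 (SE 0.10, edgeR adjusted p = 2.35e-10, n = 3 per group). The nearest protein-coding gene, Mrpl39, which encodes a mitochondrial ribosomal protein, had a log2 fold change of 0.23 (edgeR adjusted p = 0.081).

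Mir17hg (ENSMUSG00000089726, chromosome 14, 115042879 to 115046727) carries the miR-17 to miR-92 cluster, which favours lymphocyte survival and growth. It had 63.9, 76.7 and 67.0 CPM in wild type cells with cGAMP and 19.9, 20.4 and 15.4 CPM in wild type controls. It had 20.0, 16.9 and 17.7 CPM in Tmem173-/- cells with cGAMP and 14.8, 17.4 and 22.5 CPM in Tmem173-/- controls. Again only the wild type libraries with cGAMP stood apart. The log2 fold change in wild type cells was 1.90 (SE 0.14, edgeR adjusted p = 5.08e-08), close in size to that of Mir155hg.

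Mir142hg (ENSMUSG00000084796, chromosome 11, 87755577 to 87757270) is the precursor of miR-142, which is made throughout the blood lineages. It had 25.0, 33.5 and 25.7 CPM in wild type cells with cGAMP and 17.8, 22.2 and 11.1 CPM in wild type controls. These groups did not overlap, but the smallest gap was narrow. Mir142hg rose, at a log2 fold change of 0.72 (SE 0.25, edgeR adjusted p = 0.0298), and the adjusted p was 0.106 without wild type cGAMP replicate 2, 0.0629 without wild type control replicate 1 and 0.095 without wild type control replicate 3. The microRNA host list held 11 symbols, of which 4 were among the 112 lincRNAs. Of these 4, 3 rose. The fourth, Mirt1, is named after myocardial infarction and contains no annotated microRNA. It had 6.77, 8.05 and 6.58 CPM in wild type cells with cGAMP and 6.66, 9.0 and 3.67 CPM in wild type controls, and these overlapped.

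By position rather than name, 10 of the 112 lincRNAs contained an annotated small RNA, counted after the values were seen. These were 7 of the 30 that rose, 0 of the 28 that fell and 3 of the 54 that did not pass. No such count was made over all tested genes, so the split only describes these lincRNAs. Beside the 3 hosts above, 6720427I07Rik, which contains let-7d, rose with a log2 fold change of 1.07 (edgeR adjusted p = 0.000965) and E130102H24Rik, which contains miR-101a, with one of 0.93 (edgeR adjusted p = 0.0201). Both 6720427I07Rik and E130102H24Rik had summed counts under 250 in some group. 2700038G22Rik contains the small nucleolar RNA Snord93, and Epb41l4aos contains a small RNA named Gm23639. 2700038G22Rik (ENSMUSG00000097180, chromosome 5, 23850597 to 23855038) had 23.3, 25.2 and 25.8 CPM in wild type cells with cGAMP and 6.41, 7.25 and 5.37 CPM in wild type controls. Tmem173-/- libraries lay between 5.00 and 6.71 CPM, within or below the wild type control range. Its wild type log2 fold change was 1.96 (SE 0.14, edgeR adjusted p = 2.50e-08).

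**Figure D1:**
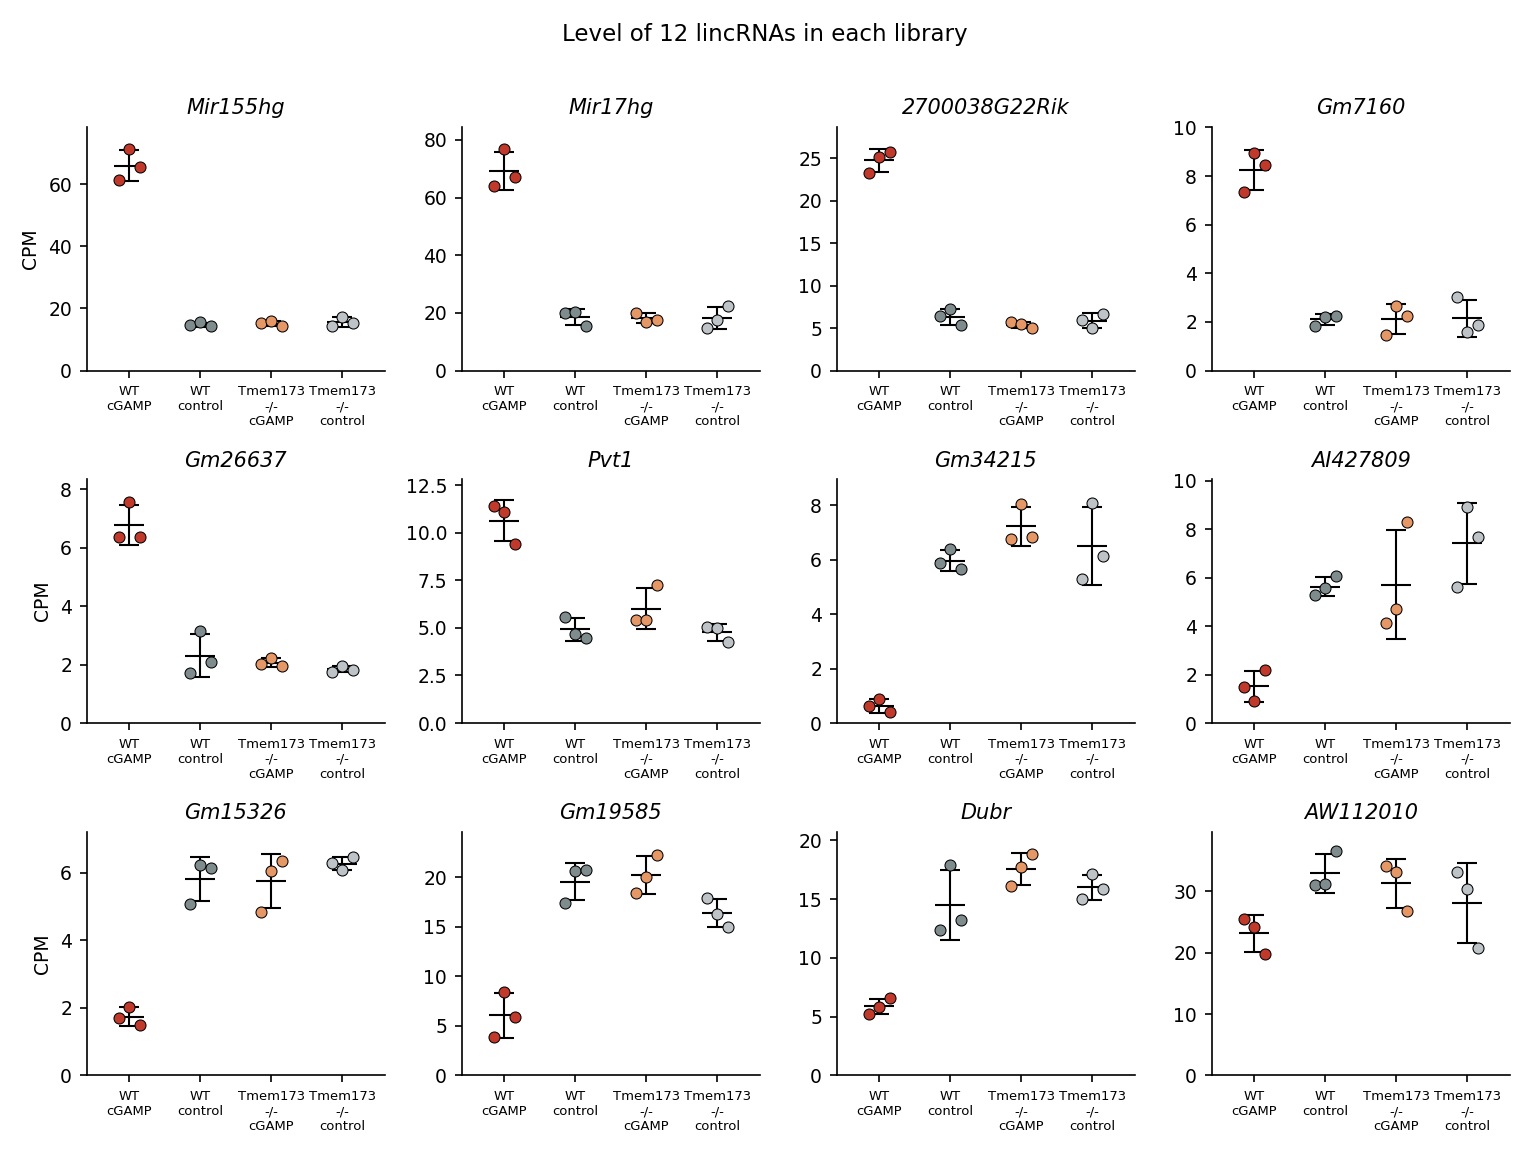
Level of 12 lincRNAs in each library, in CPM on linear axes from 0 (points, libraries; bars, mean ± SD, n = 3). In the panels from Mir155hg to Pvt1 the 3 wild type cGAMP libraries lie above the 9 others, and from Gm34215 to AW112010 they lie below the 3 wild type controls.

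Among lincRNAs tied to gene silencing and nuclear bodies, Xist rose while the others did not pass the threshold. Xist (ENSMUSG00000086503, chromosome X, 103460366 to 103483254) had 781, 932 and 847 CPM in wild type cells with cGAMP and 495, 626 and 374 CPM in wild type controls. It had 570, 631 and 696 CPM in Tmem173-/- cells with cGAMP and 478, 614 and 623 CPM in Tmem173-/- controls. The wild type groups did not overlap and the Tmem173-/- groups did. The wild type log2 fold change was 0.78 (SE 0.16, edgeR adjusted p = 0.00086). Its antisense partner Tsix, which is known to restrain Xist, overlaps it, and reads of the 2 strands could not be told apart here. Tsix itself was listed at no more than 0.176 CPM in any library. The X inactivation list held 5 symbols, 3 of them among the 112, and 1 rose. Jpx, an activator of Xist, had a log2 fold change of 0.26 (limma-voom 95% interval -0.22 to 0.74) and Ftx, a neighbour that carries miR-374b and miR-421, of -0.24 (limma-voom 95% interval -0.60 to 0.13).

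Malat1 (ENSMUSG00000092341, chromosome 19, 5795690 to 5802672), a nuclear speckle RNA, had 579, 642 and 518 CPM in wild type cells with cGAMP and 400, 451 and 166 CPM in wild type controls. All the cGAMP libraries were above the controls, and control replicate 3 was far below the other 2. The log2 fold change was 0.77 (SE 0.33, edgeR adjusted p = 0.0825) and did not pass. It passed with DESeq2 (adjusted p = 0.0458) and with limma on log2(FPKM + 1) (adjusted p = 0.0421). With edgeR it passed without wild type control replicate 2 (adjusted p = 0.0477) and with the replicate number as a block (adjusted p = 0.018). Without the filter on low counts the edgeR adjusted p was 1.04e-11 at nearly the same log2 fold change, 0.768. What made that value so small was not tested. Neat1 (ENSMUSG00000092274, chromosome 19, 5824708 to 5845478), the scaffold of paraspeckles, had 198, 266 and 188 CPM in wild type cells with cGAMP and 178, 280 and 112 CPM in wild type controls. The groups overlapped, and the log2 fold change of 0.19 (edgeR adjusted p = 0.641) was -0.08 without wild type control replicate 3. The nuclear scaffold list thus had 2 of 2 symbols among the lincRNAs and neither passed.

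Gm26917 (ENSMUSG00000097971, chromosome 17, 39843013 to 39846341) had the largest fitted rise. It had 932, 1583 and 1371 CPM in wild type cells with cGAMP and 252, 8.48 and 317 CPM in wild type controls. It had 265, 222 and 274 CPM in Tmem173-/- cells with cGAMP and 325, 163 and 196 CPM in Tmem173-/- controls. The cGAMP libraries of wild type cells were above all others, and wild type control replicate 2 was far below all others. In that same control library the mitochondrial ribosomal RNAs mt-Rnr1 and mt-Rnr2 were at 11.5 and 16.7 CPM, against 286 to 395 CPM and 663 to 1060 CPM in the other 11 libraries. What sets that library's ribosomal RNA apart was not tested. The log2 fold change of Gm26917 was 2.75 (SE 0.97, edgeR adjusted p = 0.0452). Among the fits that left out 1 wild type library, its adjusted p was over 0.05 in 5, from 0.0591 to 0.0933, and leaving out control replicate 2 kept the call. Those 5 were the fits without wild type cGAMP replicate 1, 2 or 3 and without control replicate 1 or 3.

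**Figure D2:**
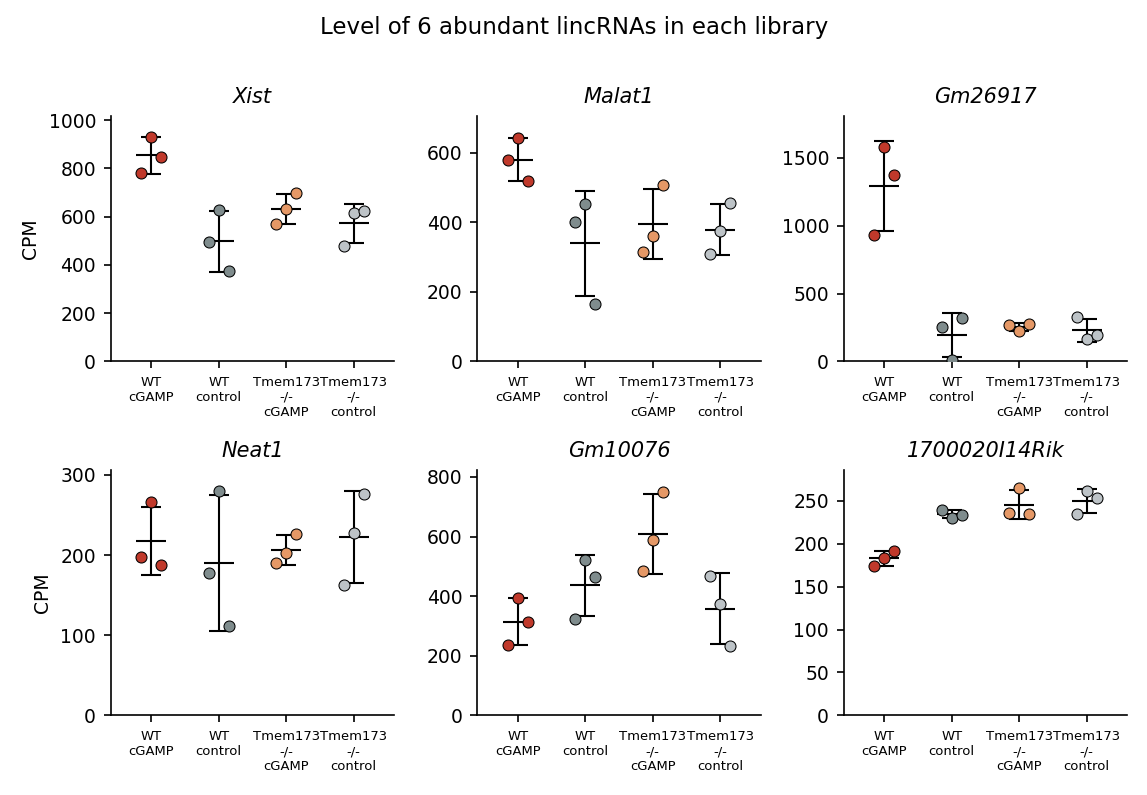
Level of 6 abundant lincRNAs in each library, in CPM on linear axes from 0 (points, libraries; bars, mean ± SD, n = 3). Xist, Malat1 and Gm26917 are highest in the wild type cGAMP libraries, 1 wild type control library has 8.48 CPM of Gm26917, and 1700020I14Rik is at 174 to 191 CPM there and at 230 to 265 CPM elsewhere.

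Other large rises came from lincRNAs without a stated function. Gm42047 (ENSMUSG00000110631, chromosome 8, 121833247 to 121841178) had 120, 201 and 200 CPM in wild type cells with cGAMP and 35.2, 65.1 and 28.2 CPM in wild type controls. Its groups did not overlap, and its log2 fold change was 2.02 (SE 0.31, edgeR adjusted p = 0.000462). Transcripts of other genes share 64.8% of its 50-base words, so its counts are uncertain. Gm47242 (ENSMUSG00000114761, chromosome 19, 12539588 to 12540823) had 37.5, 45.8 and 29.5 CPM in wild type cells with cGAMP and 6.59, 9.67 and 14.2 CPM in wild type controls. The rise was 1.89 on the log2 scale (SE 0.26, edgeR adjusted p = 6.40e-05), while the nearest protein-coding gene Fam111a, which encodes a protease linked to DNA replication, fell by 0.67 on that scale (edgeR adjusted p = 6.63e-06). Gdap10, 5430416N02Rik, 1700001L05Rik and AU020206 rose by 1.14, 1.13, 1.26 and 0.98, with edgeR adjusted p from 6.65e-07 to 1.24e-05. Gdap10 overlaps Nampt, the gene of an enzyme of NAD synthesis, which rose by 0.79 (edgeR adjusted p = 6.98e-05). The 10 lincRNAs that rose and for which no other value is given here had log2 fold changes from 0.44 for D930016D06Rik to 1.02 for 2610037D02Rik, and for D930016D06Rik and Gm16973 the groups overlapped.

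Pvt1 (ENSMUSG00000097039, chromosome 15, 62037986 to 62378096) lies beside Myc and is known from lymphomas and plasmacytomas with breaks in this region. It had 11.4, 11.1 and 9.39 CPM in wild type cells with cGAMP and 5.59, 4.68 and 4.49 CPM in wild type controls. All cGAMP libraries were above the controls, with a log2 fold change of 1.11 (SE 0.16, edgeR adjusted p = 4.06e-05). Myc, its nearest protein-coding gene at a gap of 47612 bases, rose by 1.08 (SE 0.10, edgeR adjusted p = 5.92e-07). The list of lincRNAs tied to p53 and genome stability held 6 symbols, 2 of them among the 112, and 1 rose, Pvt1. The other, 2900097C17Rik, had 343, 273 and 342 CPM in wild type cells with cGAMP and 300, 260 and 285 CPM in wild type controls, which overlapped (log2 fold change 0.18, edgeR adjusted p = 0.152). In edgeR its adjusted p was 0.0256 when cGAMP replicate 2 of the wild type was left out and 0.0447 with scaling by library totals alone. Of the 50-base words of 2900097C17Rik, 39.5% also occur in transcripts of Gm7292, so its counts are uncertain. No symbol of the imprinted list of 7 was among the 112 lincRNAs.

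The largest fall was that of Gm34215 (ENSMUSG00000114141, chromosome 12, 36326341 to 36331936). It had 0.618, 0.895 and 0.391 CPM in wild type cells with cGAMP and 5.87, 6.37 and 5.65 CPM in wild type controls. It had 6.77, 8.05 and 6.82 CPM in Tmem173-/- cells with cGAMP and 5.29, 8.06 and 6.13 CPM in Tmem173-/- controls. The wild type libraries with cGAMP were far below all 9 others. The wild type change was 9.31-fold, a log2 fold change of -3.22 (SE 0.26, edgeR adjusted p = 6.58e-08).

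AI427809 (ENSMUSG00000086712, chromosome 4, 53261356 to 53270232) had 1.49, 0.895 and 2.17 CPM in wild type cells with cGAMP and 5.27, 5.56 and 6.07 CPM in wild type controls. It fell by 1.89 on the log2 scale (SE 0.31, edgeR adjusted p = 0.000135). Its nearest protein-coding gene, Abca1, which encodes a cholesterol exporter, fell by 2.19 (SE 0.14, edgeR adjusted p = 1.62e-08) at a gap of 101461 bases. Gm15326 (ENSMUSG00000086111, chromosome 13, 111867936 to 111874730) had 1.71, 2.03 and 1.49 CPM in wild type cells with cGAMP and 5.06, 6.23 and 6.15 CPM in wild type controls, a fall of 1.73 (SE 0.19, edgeR adjusted p = 1.67e-06). Its neighbour Map3k1, a kinase gene of the stress-activated cascade, fell by 0.85 (edgeR adjusted p = 1.27e-06). Both lincRNAs were separated between the groups by more than the spread of either.

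Gm19585 (ENSMUSG00000100150, chromosome 17, 51986415 to 52163976) had 3.93, 8.40 and 5.87 CPM in wild type cells with cGAMP and 17.4, 20.6 and 20.7 CPM in wild type controls. It fell by 1.69 (SE 0.19, edgeR adjusted p = 4.22e-06), and Satb1, a chromatin organiser of lymphocytes and its nearest protein-coding gene at 153125 bases, fell by 0.93 (edgeR adjusted p = 1.05e-05). Dubr (ENSMUSG00000022639, chromosome 16, 50719294 to 50732773), named for its position upstream of Dppa2, had 5.24, 5.85 and 6.55 CPM in wild type cells with cGAMP and 12.4, 17.9 and 13.2 CPM in wild type controls. Its fall was 1.30 (SE 0.15, edgeR adjusted p = 2.77e-06). In both, every cGAMP library was below every control by more than the spread within either group. Gm39321, C430042M11Rik, 2610035D17Rik, Gm15232, Gm28875, Gm43672 and Gm43388 fell by 0.98 to 1.54, with edgeR adjusted p from 6.95e-06 to 0.000666.

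AI504432 (ENSMUSG00000056145, chromosome 3, 107039504 to 107054347) was the most abundant of the lincRNAs that fell, apart from 1700020I14Rik. It had 33.5, 42.6 and 32.9 CPM in wild type cells with cGAMP and 58.5, 74.7 and 55.2 CPM in wild type controls. The groups did not overlap, and it fell by 0.79 (SE 0.13, edgeR adjusted p = 9.28e-05). Kcna3, the gene of a lymphocyte potassium channel that lies 1434 bases away on the same strand, fell by 0.76 (SE 0.13, edgeR adjusted p = 0.000122). A further 13 lincRNAs fell by 0.28 to 0.92, the smallest fall being that of Gm37494, and for Gm39556 and Gm39383 among them the groups overlapped. The 54 that did not pass had log2 fold changes from -0.57 for 4833407H14Rik to 0.90 for 4932422M17Rik. Among them 1810058I24Rik, which RefSeq lists as the protein-coding gene Stmp1, had 41.3, 33.1 and 36.6 CPM in wild type cells with cGAMP and 45.9, 35.8 and 50.5 CPM in wild type controls, which overlapped (log2 fold change -0.25, edgeR adjusted p = 0.142). In edgeR its adjusted p was 0.0248 when control replicate 2 of the wild type was left out.

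Of the immune and inflammatory list, 1 of 10 symbols was among the 112 lincRNAs, AW112010, and it fell. AW112010 (ENSMUSG00000075010, chromosome 19, 11047617 to 11050566) is known from mouse macrophages, where it is induced by inflammation and encodes a short peptide of mucosal immunity. It had 25.4, 24.1 and 19.8 CPM in wild type cells with cGAMP and 31, 31.1 and 36.6 CPM in wild type controls. It had 34, 33.1 and 26.7 CPM in Tmem173-/- cells with cGAMP and 33.1, 30.3 and 20.8 CPM in Tmem173-/- controls. The wild type groups did not overlap, and the log2 fold change was -0.51 (SE 0.16, edgeR adjusted p = 0.0131). The adjusted p was 0.0647 without wild type cGAMP replicate 3 and 0.0551 without wild type control replicate 3.

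**Figure D3:**
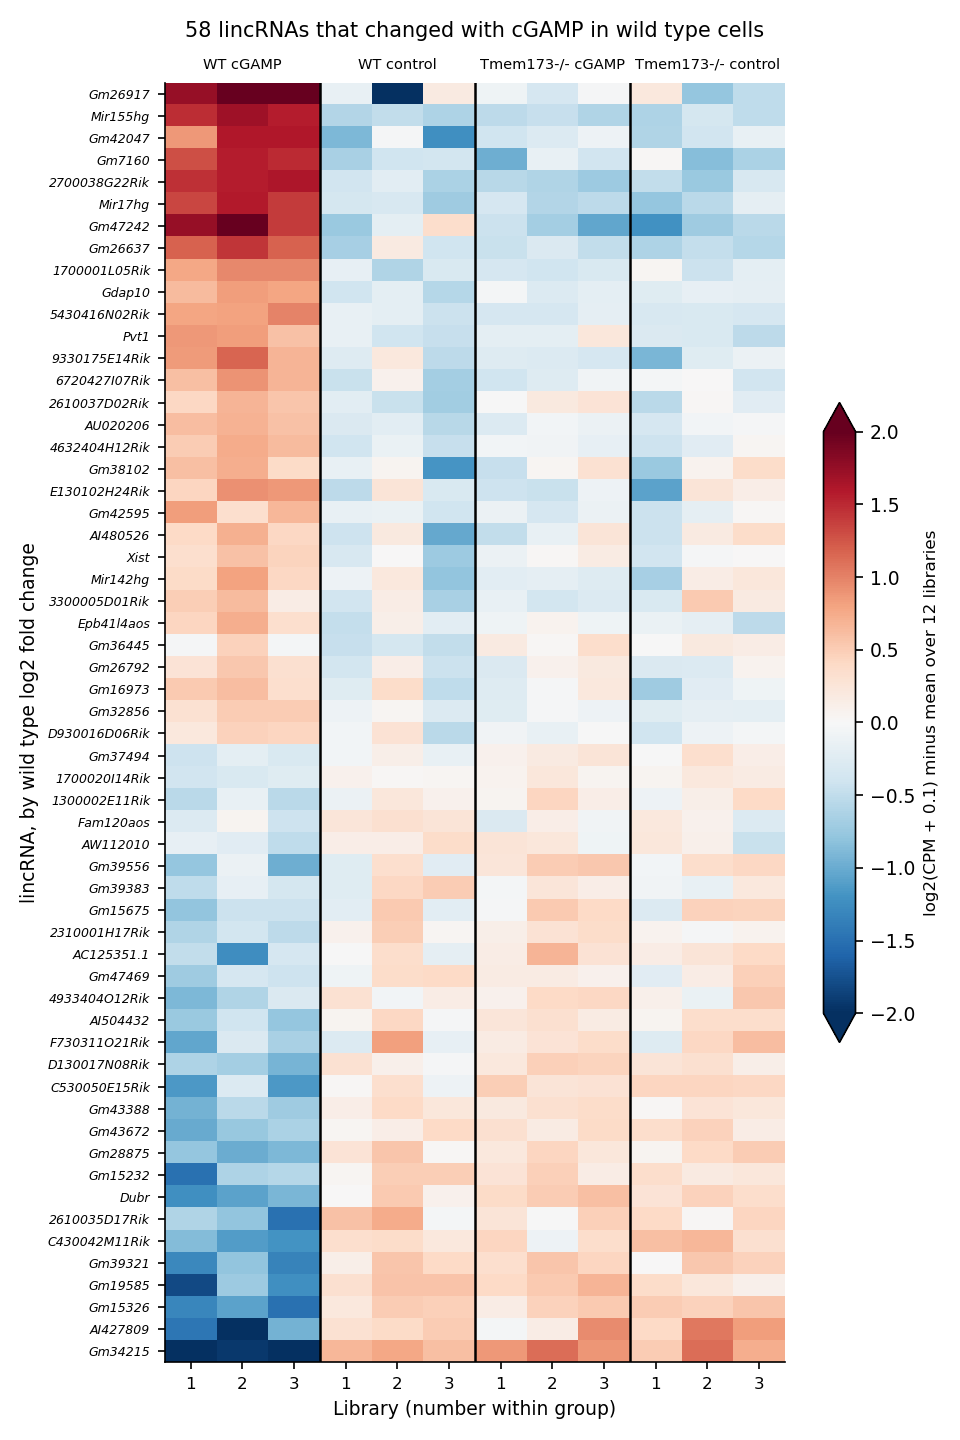
Heat map of the 58 lincRNAs that changed with cGAMP in wild type cells, ordered by their wild type log2 fold change; columns are the 12 libraries and colour is log2(CPM + 0.1) minus the mean of the row, drawn between -2 and 2. The rows were chosen by a difference between the wild type groups, so the contrast of those columns is not a separate result. In some rows the wild type cGAMP libraries overlap those of Tmem173-/- cells, as for Gm36445 and AW112010. The dark cell of Gm26917 in wild type control replicate 2 is its 8.48 CPM.

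The same comparison in Tmem173-/- cells asked whether any lincRNA followed cGAMP without STING. With edgeR 0 lincRNAs were higher and 0 lower, the background being 0% higher and 0% lower of all tested genes, and 3 of the 112 had an unadjusted p under 0.05. DESeq2 and limma-voom also called 0 lincRNAs, each with 3 at an unadjusted p under 0.05. The log2 fold changes lay between -0.45 for 3300005D01Rik and 0.76 for Gm10076, with a median of 0.04, and their limma-voom 95% intervals reached a median of 0.42 to either side. Changes within these intervals could have been missed with 3 libraries a group, and the size that could be detected differed between lincRNAs. In wild type cells a log2 fold change of -0.28 passed for Gm37494 (edgeR adjusted p = 0.0361). The 30 lincRNAs that rose in wild type cells had a median log2 fold change of 0.06 in Tmem173-/- cells (range -0.45 to 0.41), against 1.00 in wild type cells. The 28 that fell had a median of 0.05 in Tmem173-/- cells (range -0.37 to 0.30), against -0.87 in wild type cells. Gm10076 had 486, 588 and 751 CPM in Tmem173-/- cells with cGAMP and 468, 375 and 232 CPM in Tmem173-/- controls. Its groups did not overlap, but its adjusted p in edgeR was 1. Without the filter on low counts its adjusted p was 3.47e-09.

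**Figure D4:**
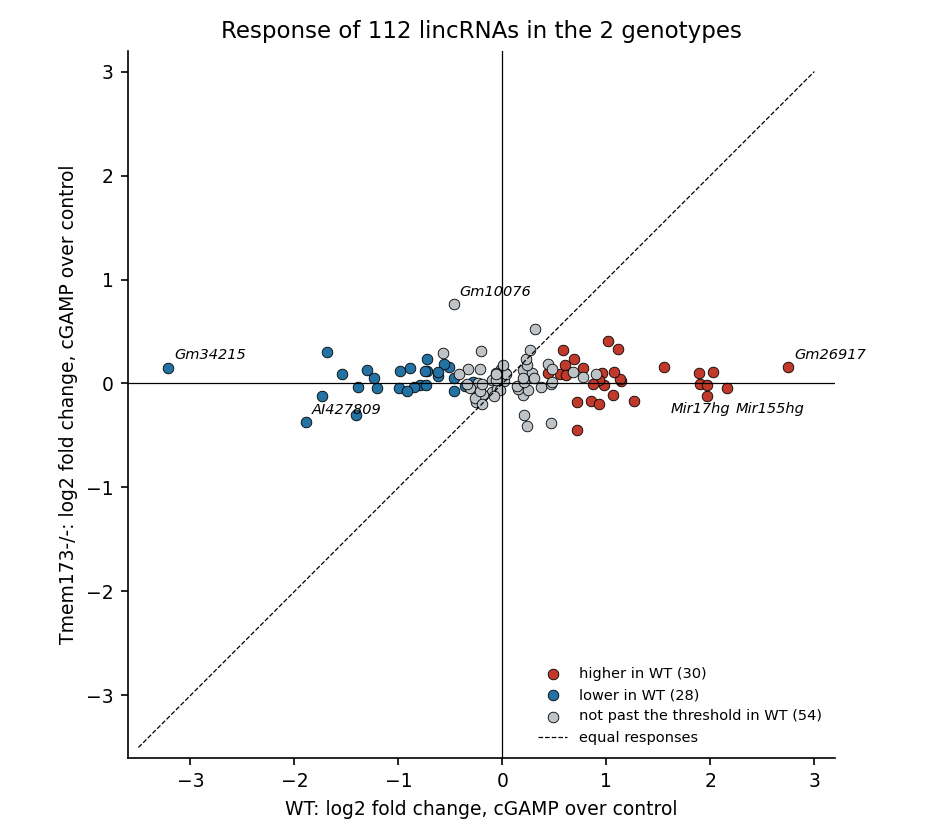
Log2 fold change of cGAMP over control in wild type cells (x axis) and in Tmem173-/- cells (y axis) for 112 lincRNAs, with the dashed line at equal responses. Wild type changes run from -3.22 for Gm34215 to 2.75 for Gm26917, and Tmem173-/- changes from -0.45 to 0.76.

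The difference between the responses was tested directly. With edgeR, the Tmem173-/- response minus the wild type response was higher for 21 lincRNAs and lower for 18, with 17.5% of all tested genes higher and 14.1% lower in the background. The shares were 18.8% and 16.1% of the lincRNAs, and 22.6% and 17.5% of the other 10107 genes with the same summed count. The lincRNAs with a difference below 0 were 18 of the 30 that rose in wild type cells, and those above 0 were 19 of the 28 that fell and 2 that did not pass. The wild type response is part of this difference, so these directions are not independent of the wild type calls. Gm34215 had the largest difference, a log2 value of 3.37 (SE 0.33, edgeR adjusted p = 2.28e-06). Among those that passed, Mir155hg stood at the other side with -2.21 (SE 0.14, edgeR adjusted p = 3.66e-08), then 2700038G22Rik with -2.09, Gm7160 with -1.98, Gm42047 with -1.91 and Mir17hg with -1.90. Xist differed by -0.63 (SE 0.22, edgeR adjusted p = 0.0422) and AW112010 by 0.66 (SE 0.22, edgeR adjusted p = 0.03). Gm26917 did not pass (-2.60, SE 1.31, edgeR adjusted p = 0.173), nor did Mir142hg (-0.90, SE 0.35, edgeR adjusted p = 0.0715).

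The genotypes were also compared within each treatment. Between controls, edgeR called 0 lincRNAs higher and 0 lower, with 0% and 0% of all tested genes called in the background, and 3 of the 112 had an unadjusted p under 0.05. DESeq2 had 4 and limma-voom 2 at that level, and neither called any. Log2 values of Tmem173-/- control over wild type control ran from -0.68 for Gm47242 to 0.56 for Gm36445. Gm47242 had 4.71, 6.72 and 7.62 CPM in Tmem173-/- controls and 6.59, 9.67 and 14.2 CPM in wild type controls, which overlapped. With cGAMP, 31 lincRNAs were higher and 23 lower in Tmem173-/- cells than in wild type cells, with 24.9% and 23.5% of all tested genes in the background. This comparison shares the wild type cGAMP libraries with the wild type response, so the 2 are not independent. It called lower 23 of the 30 lincRNAs that rose in wild type cells and higher 26 of the 28 that fell.

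The protein-coding gene nearest to each lincRNA was followed in the same test. The median gap was 3811 bases, 63 of the 112 lincRNAs lay within 5000 bases of that gene and 21 overlapped its body. In 98 pairs the nearest gene was tested, 96 different genes, with Setd1b and Zfp825 each in 2 pairs. Where the lincRNA rose, the neighbour rose in 9 of 24 pairs, fell in 6 and did not pass in 9. Where the lincRNA fell, the neighbour rose in 3 of 25 pairs, fell in 15 and did not pass in 7. Where the lincRNA did not pass, 9 neighbours rose, 16 fell and 24 did not pass. In the background 22.4% of all tested genes rose and 25.4% fell. Of the genes outside the 112 with at least 1000 summed counts, 25.9% rose and 31.4% fell. Across the 98 pairs Spearman's rho of the 2 log2 fold changes was 0.44, a description of pairs that share libraries, with 0.48 over 58 pairs within 5000 bases and 0.41 over 40 pairs farther apart.

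A group of 11 lincRNAs started within 1000 bases of the start of a nearest protein-coding gene on the opposite strand, and across these rho was 0.68 (n = 11 pairs). In this group 5 lincRNAs rose, and the neighbours of 3 rose and of 2 did not pass. Beside the 2 lincRNAs that fell, 1 neighbour rose, Fam120a beside Fam120aos, and 1 fell, Tbl1xr1 beside Gm43672. Beside the 4 lincRNAs that did not pass, all 4 neighbours fell. Gm7160 (ENSMUSG00000099843, chromosome 1, 105979350 to 105990282) starts 124 bases from Zcchc2, a zinc finger gene. It had 7.35, 8.95 and 8.47 CPM in wild type cells with cGAMP and 1.85, 2.22 and 2.26 CPM in wild type controls. Gm7160 rose by 1.97 on the log2 scale (SE 0.26, edgeR adjusted p = 1.18e-05) and Zcchc2 by 1.63 (SE 0.09, edgeR adjusted p = 1.72e-09).

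Gm26637 (ENSMUSG00000097567, chromosome 17, 78882042 to 78892500) starts 531 bases from the start of Eif2ak2, which encodes the double-stranded RNA sensor PKR, and 11.4% of its exonic bases are shared with exons of other genes, Eif2ak2 among them. It had 6.37, 7.57 and 6.37 CPM in wild type cells with cGAMP and 1.71, 3.13 and 2.08 CPM in wild type controls. All cGAMP libraries were above the controls. Gm26637 rose by 1.55 (SE 0.22, edgeR adjusted p = 3.03e-05) and Eif2ak2 by 1.57 (SE 0.14, edgeR adjusted p = 3.81e-07). 9330175E14Rik rose by 1.08 (SE 0.21, edgeR adjusted p = 0.000514) beside Nlrc5, the activator of MHC class I genes, which rose by 1.51 (SE 0.11, edgeR adjusted p = 3.58e-08), with starts 747 bases apart. Where exons overlap on opposite strands, reads of the 2 genes cannot be told apart, because the strand setting of the counting is not given in the sources used here.

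Some neighbours moved in the other direction, as Fam111a did beside Gm47242. The lincRNA 1700020I14Rik (ENSMUSG00000085438, chromosome 2, 119594297 to 119607502) had 174, 183 and 191 CPM in wild type cells with cGAMP and 239, 230 and 233 CPM in wild type controls. It fell by 0.36 (SE 0.08, edgeR adjusted p = 0.0015), while Oip5, which helps load histones at centromeres, rose by 1.87 (SE 0.24, edgeR adjusted p = 1.08e-05) at a gap of 2010 bases. By contrast, Mir142hg and its neighbour Tspoap1, which encodes a protein that binds the mitochondrial translocator protein, both rose, by 0.72 and 2.51.

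**Figure D5:**
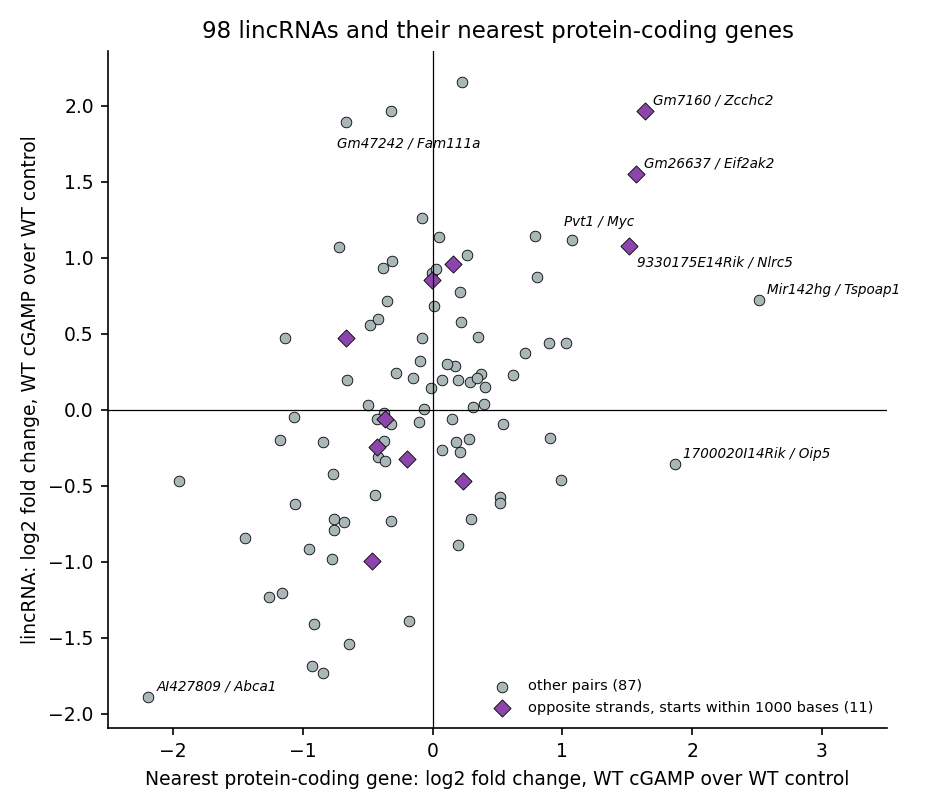
Log2 fold change of cGAMP over control in wild type cells for the nearest protein-coding gene (x axis) and for the lincRNA (y axis) in 98 pairs; diamonds mark 11 pairs on opposite strands with starts within 1000 bases. Gm7160 with Zcchc2, Gm26637 with Eif2ak2 and 9330175E14Rik with Nlrc5 lie at the upper right, and Gm47242 and 1700020I14Rik have a neighbour of the opposite sign.

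Promoters were searched for binding motifs of interferon-activated factors, in windows from 250 bases before to 50 bases after each RefSeq start. RefSeq promoters were found for 57 of the 112 lincRNAs, 69 windows in all, and in 49 of the 57 a RefSeq start lay within 1000 bases of the deposited gene start. The RefSeq start of Mir155hg lay 9856 bases and that of Mir17hg 1511 bases from the deposited start, so their windows do not cover it. The interferon-stimulated response element, searched as GAAA, any 2 bases and GAAA on both strands, was found for 1 of the 57 (1.75%), Gm31718, whose RefSeq starts lay at least 54967 bases from the deposited start, and for 3.99% of all 27025 RefSeq genes. The gamma-activated sequence, searched as TTCNNNGAA, which reads the same on both strands, was found for 3 of the 57 (5.26%), Dubr, 1810058I24Rik and Gm19951, and for 9.55% of all RefSeq genes. By window, 3.44% and 8.30% of all 32851 RefSeq promoters held them. Neither motif was in any of the 21 windows found for 17 of the lincRNAs that rose. Of these 17 lincRNAs, 14 had a RefSeq start within 1000 bases of the deposited start. Mir155hg, Mir17hg and Gdap10, the last 2244 bases away, did not, so their windows say nothing about the deposited start. Among the 7 promoters found for the 11 opposite-strand neighbours, that of Eif2ak2 held both motifs and the other 6 held neither, a search added after the values were seen. It is shown because Gm26637, on the opposite strand, overlaps Eif2ak2 and starts 531 bases from the Eif2ak2 start, on the side of the gene body. It is RefSeq sequence at chr17:78882523-78882822 of GRCm38.p6 on the minus strand, with matches to either motif in capitals.
Eif2ak2 promoter: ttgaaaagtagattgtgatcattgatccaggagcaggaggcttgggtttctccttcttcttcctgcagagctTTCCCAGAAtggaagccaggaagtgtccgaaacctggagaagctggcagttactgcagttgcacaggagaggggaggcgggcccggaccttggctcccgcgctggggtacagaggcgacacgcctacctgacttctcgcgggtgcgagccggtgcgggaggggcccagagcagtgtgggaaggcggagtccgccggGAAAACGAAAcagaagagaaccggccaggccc
The first match in reading order is the gamma-activated sequence and the second the interferon-stimulated response element.

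Several lincRNAs share sequence with other genes, which bears on how their counts are read. Of the 112, 44 share exonic bases with another annotated gene, 6 of them over 50%. These are Gm26669, which lies in Zfp36l1, 4833407H14Rik, which overlaps Mirt1, Gm44226, and AI480526, Gm38102 and 4932422M17Rik at 1 locus of chromosome 5, where AI480526 shares exonic bases with each of the other two. AI480526 and Gm38102 rose by 0.85 (edgeR adjusted p = 0.0261) and 0.93 (edgeR adjusted p = 0.0249), and 4932422M17Rik had a log2 fold change of 0.90 (edgeR adjusted p = 0.0588). 4932422M17Rik passed with DESeq2 (adjusted p = 0.036), limma-voom (adjusted p = 0.0263) and both limma fits on FPKM (adjusted p = 0.0463 and 0.0489), and in edgeR without the filter on low counts (adjusted p = 0.000547) and without wild type control replicate 2 (adjusted p = 0.00329). With this overlap AI480526 and either of the other two are not separate observations. By 50-base words, 8 of 111 share at least 50% with transcripts of other genes and 36 share none.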

How the data were processed

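RNA of B lymphocytes was sequenced in 12 libraries, 3 in each of 4 groups taken from the labels. The tools fastp, STAR and featureCounts and the builds GRCm38 and mm10 are named in the submitters' processing notes, while versions and strand settings are not given in the sources used here. The authors deposited a raw count for each gene and library, which all tests used. They also deposited FPKM values, used only in alternatives, which are these counts divided by library total and a transcript length.

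From these, edgeR 4.0.16 in R 4.3.3 filtered genes by group (14473 tested), scaled libraries by TMM and fitted robust quasi-likelihood models with a mean for each group. P-values of 5 contrasts were two-sided and adjusted by Benjamini-Hochberg, and measure only the spread between these libraries. A standard error (SE) is the log2 fold change over the square root of F. Levels are CPM scaled by TMM (mean ± SD, n = 3). Intervals are from limma-voom (limma 3.58.1), which with DESeq2 1.42.0, limma on log2(FPKM + 1) and log2(FPKM + 0.1), other scalings, no filter, a replicate block and libraries left out served as alternatives. The fit was tested on simulated counts. Coordinates are those deposited, exons are from GENCODE M21, and 104 of the 112 lincRNAs have the same bounds there. Shared sequence was counted over words of 50 bases on either strand.

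The lincRNAs, the lists of roles and markers and the rule for named genes were chosen with earlier results of these data known. The rule named lincRNAs by largest change within each contrast (12 each way for the wild type response, 6 for the others, with groups that did not overlap), the 10 with the highest mean CPM in wild type controls, the 2 largest and 2 smallest spreads there, the role lists, and nearest protein-coding genes.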

Additional observations from a re-analysis of the deposited data

Results flagged for a closer look

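The responses of the 2 genotypes to cGAMP differed for 39 of the 112 lincRNAs in the direct edgeR test, an adjusted p under 0.05 for the Tmem173-/- response minus the wild type response. The called difference was above 0 for 18.8% and below 0 for 16.1% of the 112, beside 17.5% and 14.1% of all tested genes. Among the other genes with at least 1000 summed counts these shares were 22.6% and 17.5%. The 6 largest differences above 0 among lincRNAs whose cGAMP libraries did not overlap between genotypes were those of Gm34215 (log2 value 3.37), Gm19585 (1.99), Gm39321 (1.64), Gm15326 (1.61), AI427809 (1.52) and Dubr (1.43). All 6 fell with cGAMP in wild type cells. The 6 largest below 0 were those of Mir155hg (-2.21), 2700038G22Rik (-2.09), Gm7160 (-1.98), Gm42047 (-1.91), Mir17hg (-1.90) and Gm47242 (-1.79). All 6 rose with cGAMP in wild type cells. The wild type response is part of the difference, so these directions are not separate results. Each of the 12 had 3 libraries in each of the 4 groups behind it, and in Tmem173-/- cells none of the 12 passed the threshold.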

How the results depend on the processing

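Under 8 other settings of scaling, filter, model and block, 52 to 66 lincRNAs were called in the wild type response (58 as reported), 34 to 50 in the difference between responses (39) and 49 to 62 between the genotypes with cGAMP (54). Leaving out 1 library gave 46 to 58, 29 to 43 and 44 to 50, and leaving out both wild type replicate 1 libraries 43, 32 and 50. The wild type split moved most with single control libraries, to 37 higher and 21 lower without control replicate 2 and to 20 higher and 26 lower without control replicate 3. Calls in Tmem173-/- cells and between controls stayed at 0 except without the filter on low counts, which gave 1.0 each, Gm10076 (log2 0.77) and Gm47242 (log2 -0.67); the cause was not tested. Of 1032 alternative values for 64 named comparisons, 999 kept direction and side of the threshold, 13 lost the call, 18 gained it and 2 changed sign. The sign changes came without wild type control replicate 3, for Neat1 (-0.083, range over single libraries left out -0.083 to 0.581) and Mirt1 (-0.14, range -0.14 to 0.46), both not past the threshold; the cause was not tested. The losses were Gm26917, Mir142hg and AW112010, and the gains Malat1, 4932422M17Rik, 2900097C17Rik, 1810058I24Rik and Gm10076. With the replicate number as a block, 66 lincRNAs were called in the wild type response, 50 in the difference and 57 between the genotypes with cGAMP, Gm26917 was lost (adjusted p = 0.116), and Malat1 (adjusted p = 0.018), 2900097C17Rik (0.0438), 1810058I24Rik (0.0319) and 4932422M17Rik (0.00178) were gained. The numbers were not taken as pairs, since the labels do not say which libraries came from 1 mouse. Correlations of same-numbered libraries were 0.30, 0.22 and 0.08 in wild type and 0.29, 0.10 and 0.17 in Tmem173-/- cells. Each library correlated best with its own number, so the numbers may mark pairs, and the calls with the block differ as given above. Of 22 called neighbours, 19 kept every call. Depth limits the least abundant: Gm34215 rested on 17, 26 and 11 counts in the wild type libraries with cGAMP.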
